A study of Mus musculus with 6 samples.

Results

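The genes of the semaphorins, of their plexin receptors and of the neuropilin co-receptors were followed in the epithelium and the mesenchyme of the embryonic mouse bladder. They were taken from the array annotation by symbol: Sema3 to Sema7 followed by a letter, every symbol that begins with Plxn, and Nrp1 and Nrp2. The rule found 32 of the 18193 genes measured, with 79 probe sets among them. There were 20 semaphorins, 9 plexins, 2 neuropilins and Plxna4os1, a transcript named for the strand opposite Plxna4 that is not itself a plexin gene. Bladders came from wild-type FVB/N embryos of unknown sex at embryonic day 13 (Theiler stage 21). They were soaked for 20 minutes in 20 µM EDTA, which loosens epithelium from mesenchyme, and the layers were then parted with a needle. Mesenchyme was measured on 3 arrays (numbered 1, 2 and 4) and urothelium, the bladder epithelium, on 3 others (5, 7 and 8). Genotype, strain, age and EDTA treatment were the same for all 6, no sample was pooled, and RNA was amplified in 2 rounds before hybridisation to Affymetrix MOE430 arrays. The labels do not tie the arrays to separate embryos, so the p-values measure only the spread between these samples, which may be technical.

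Semaphorins are guidance proteins best known for repelling growing axons, and they also steer endothelial cells, neural crest cells and epithelial branching. Class 3 members are secreted, classes 4, 5 and 6 are held in the membrane, and class 7 is attached to it by a lipid anchor. Plexins are the signalling receptors, and most class 3 semaphorins reach plexins of the A family through a neuropilin, which binds the ligand but has little signalling activity of its own. Sema3e is the exception, binding Plxnd1 directly. Neuropilins also bind members of the VEGF family and are co-receptors for them on blood and lymphatic vessels.

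The arrays carried the markers of their labelled layers. The summed signal of 10 epithelial markers was 8325 to 11386 on the mesenchyme arrays and 426961 to 511575 on the urothelium arrays, and that of 10 mesenchymal markers was 253670.0 to 344056 and 9520.5 to 14628. Median signals ran from 132 to 239.7 over the 6 arrays, and their number limits the precision. Mesenchyme 1 and urothelium 5 had a beta-actin 3′ to 5′ signal ratio, which grows as amplified RNA covers less of a transcript, of 8.40 and 8.60, against 2.29 to 4.89 on the others. Calls lost without either or both of these 2 arrays are named, and some log2 differences that moved by over 1.5-fold are given with both values.

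Both neuropilin genes and the plexin genes Plxnd1 and Plxnc1 were higher in mesenchyme. The secreted ligand genes Sema3c, Sema3e and Sema3b were higher in urothelium, while the secreted ligand genes Sema3a and Sema3g were higher in mesenchyme. Of the 20 semaphorins, 5 were higher in mesenchyme (8.99% of all genes) and 4 in urothelium (5.75%). In all, 10 of the 32 genes were higher in mesenchyme and 5 in urothelium, together 46.9%. Of all genes tested, 8.99% were higher in mesenchyme and 5.75% in urothelium, together 14.7%. A gene passed with an adjusted p under 0.05 in limma's moderated test, after Benjamini-Hochberg adjustment over all 18193 genes. With the arrays centred on their medians the counts were 9 and 7 (7.32% and 6.22% of all genes), as they were after quantile normalization (8.39% and 6.35%); centring moved the median of all genes from −0.11 to 0.077 on the log2 scale. The urothelium count was 3 without mesenchyme 2, urothelium 7 or urothelium 8 (4.10%, 3.58% and 4.83% of all genes), and 9 with array weights (11.4%). Without urothelium 7 the count of all genes higher in urothelium fell from 1047 to 652. The signals of the compartments did not overlap for 20 of the 32 genes, against 30.2% of all genes; 12 were higher in mesenchyme (18.2% of all) and 8 in urothelium (12.0%). The median log2 difference, urothelium minus mesenchyme, was −0.45 over the 32 genes. Differences are of log2(signal + 45), which understates the change of dim genes, and signals of different genes are not compared because each comes from its own probe set.

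**Figure D1:**
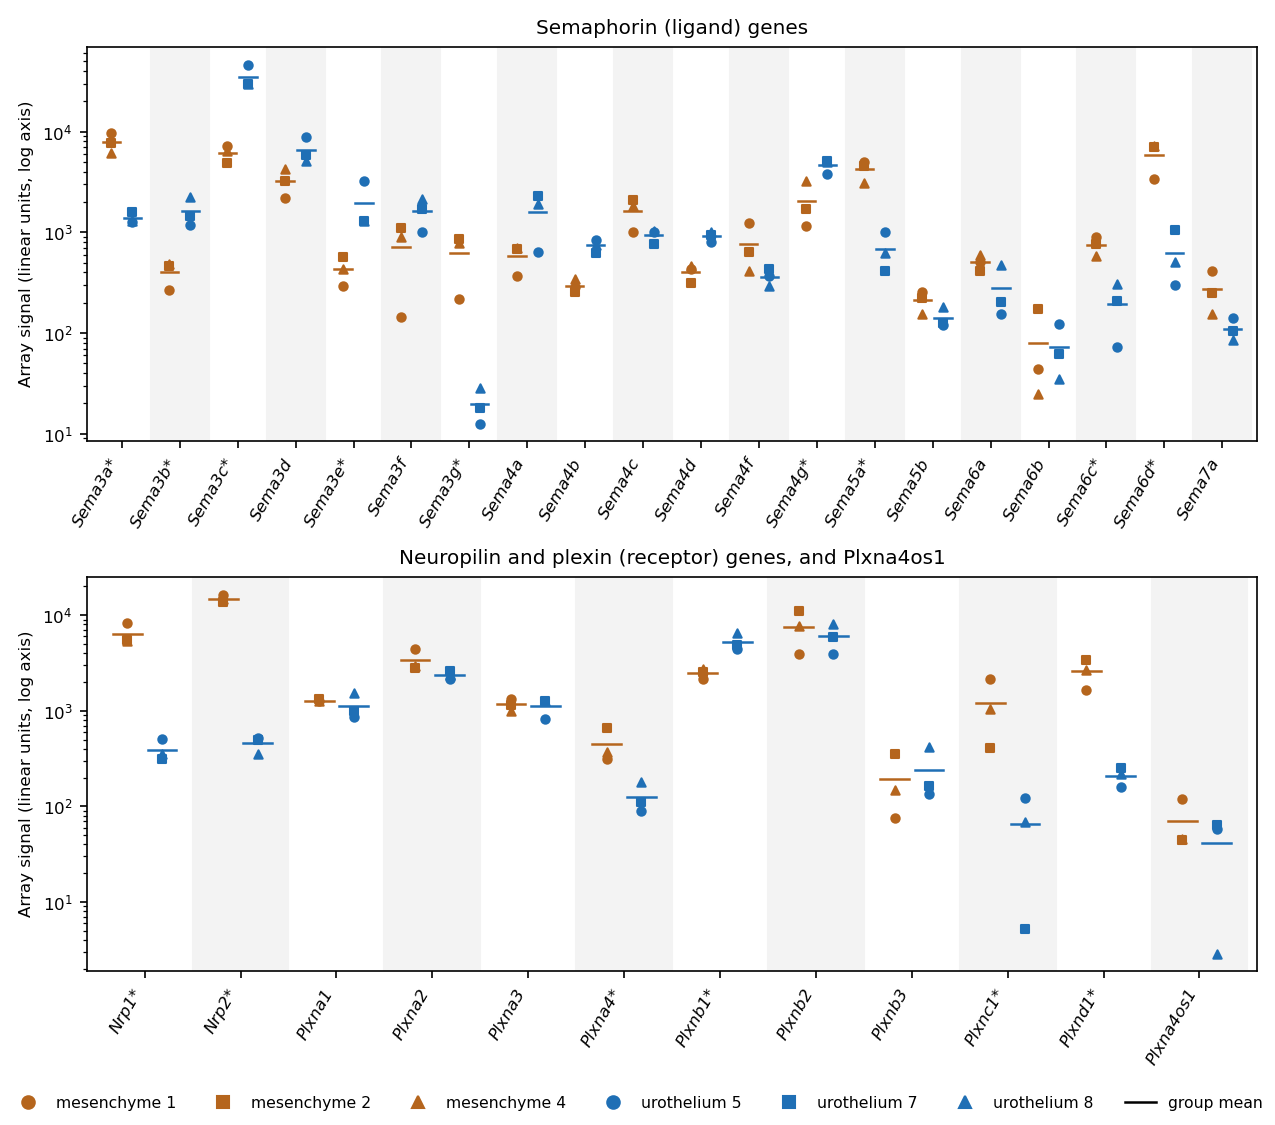
Signal of each gene on each array (log axis), with semaphorins above and receptors below; brown marks are mesenchyme arrays, blue marks urothelium arrays, bars are means of 3 arrays and an asterisk marks genes past the test. Among the genes whose brown and blue marks stand apart without overlap are Nrp1, Nrp2, Plxnd1, Plxnc1, Sema3a, Sema3g, Sema5a and Sema6d (brown higher) and Sema3b, Sema3c and Sema3e (blue higher).

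**Figure D2:**
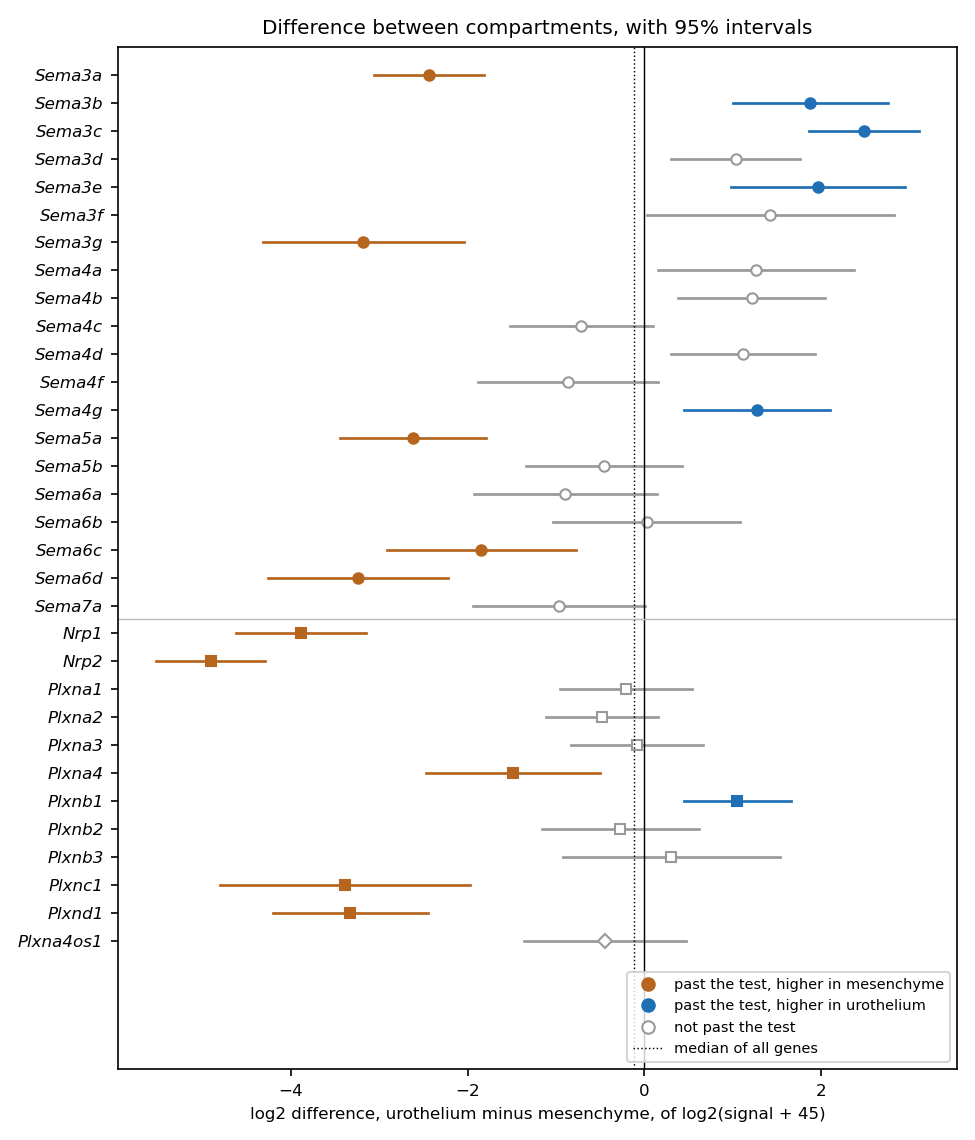
Log2 difference of each gene, urothelium minus mesenchyme, on the log2(signal + 45) scale with its 95% interval; circles are ligands, squares receptors, the diamond Plxna4os1, and open marks genes not past the test. Filled marks lie from −4.91 (Nrp2) to 2.49 (Sema3c), and the dotted line is the median of all genes at −0.11.

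Among the class 3 ligands, Sema3c had the largest difference towards urothelium by its brightest probe set; with the probe sets of each gene averaged, Sema3e (2.62) lay above Sema3c (2.22). Sema3c, a secreted ligand that binds both neuropilins and acts through Plxnd1 in heart development, had signals of 7144, 4876 and 6452 on mesenchyme arrays 1, 2 and 4 and of 46070.0, 29477 and 30049.5 on urothelium arrays 5, 7 and 8; later signals are given in the same order. Every urothelium array lay above every mesenchyme array, and urothelium 5 was the highest. The log2 difference was 2.49 ± 0.28 (SE), a 5.63-fold difference on that scale, with limma's adjusted p = 0.000128. The other probe set of Sema3c gave 1.95, past the test when every probe set was tested by itself. On that probe set urothelium 5 was the lowest urothelium array (1053, 2228 and 3724). Sema3e, the ligand of Plxnd1 in the patterning of vessels, had signals of 291, 570.5 and 432 in mesenchyme and 3228, 1302 and 1305 in urothelium. Again the arrays did not overlap, and again urothelium 5 was the highest; the log2 difference was 1.97 ± 0.45 (limma adjusted p = 0.0118). Without urothelium 5 it was 1.54, and without mesenchyme 1 as well 1.32, both past the test. All 4 probe sets of Sema3e were higher in urothelium, with log2 differences from 1.97 to 3.89. Sema3b, a secreted ligand also studied as a candidate tumour suppressor, had signals of 267, 463 and 483 and 1182, 1458 and 2227, without overlap. It was 3.69-fold higher in urothelium, with a log2 difference of 1.88 ± 0.40 and a limma adjusted p of 0.00810.

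The promoter windows of Sema3c, Sema3e and Plxnd1 are shown because these ligands, higher in urothelium, share a receptor gene that was higher in mesenchyme. Each window holds the 250 bases before the annotated start, 5′ to 3′ on the gene's strand, from RefSeq (GRCm38.p6): Sema3c at chr5:17574566-17574815 (plus strand), Sema3e at chr5:14025026-14025275 (plus strand) and Plxnd1 at chr6:115995006-115995255 (minus strand). Capitals mark matches to GCCNNNGGC, the palindromic site of AP-2 factors.
Sema3c: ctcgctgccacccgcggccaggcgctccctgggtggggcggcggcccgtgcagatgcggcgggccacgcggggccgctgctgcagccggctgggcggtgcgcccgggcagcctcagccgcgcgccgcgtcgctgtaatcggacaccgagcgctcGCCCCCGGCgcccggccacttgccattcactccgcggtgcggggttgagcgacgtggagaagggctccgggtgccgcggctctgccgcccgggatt
Sema3e: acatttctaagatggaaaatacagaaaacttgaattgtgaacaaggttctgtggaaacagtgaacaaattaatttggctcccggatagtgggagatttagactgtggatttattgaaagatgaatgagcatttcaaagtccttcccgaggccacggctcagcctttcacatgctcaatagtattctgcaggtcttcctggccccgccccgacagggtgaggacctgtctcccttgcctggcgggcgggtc
Plxnd1: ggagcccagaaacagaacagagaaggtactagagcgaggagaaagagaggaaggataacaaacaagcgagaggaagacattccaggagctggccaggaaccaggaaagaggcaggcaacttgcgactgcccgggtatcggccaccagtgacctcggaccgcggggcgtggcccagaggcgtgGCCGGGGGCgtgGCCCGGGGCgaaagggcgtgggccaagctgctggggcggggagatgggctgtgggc
Sema3c had a match beginning 96 bases before the start, Plxnd1 had 2 at 68 and 56 bases before it, and Sema3e had 0. Of the 32 genes 26 had a window in the RefSeq table, 37 windows in all. The AP-2 letters stood in 8 of these 37 and in 13.7% of all 32851 windows. The E-box CAGGTG, bound by Zeb and Snail factors, stood in 5 of the 37 and 17.2% of all windows. The forkhead letters TGTTTAC stood in 0 of the 37, against 3.17% of all. The palindromic grainyhead letters AACCGGTT also stood in 0 of them, against 0.116% of all. No matches overlapped in these windows, both strands were searched, and a match describes only the letters.

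Sema3a and Sema3g ran the other way. Sema3a, the class 3 ligand that repels axons through Nrp1 and A-type plexins, had signals of 9614, 7788 and 6122 in mesenchyme and 1273, 1608 and 1304 in urothelium. The mesenchyme arrays were all above the urothelium arrays, by 5.41-fold overall (log2 difference −2.44 ± 0.28, limma adjusted p = 0.000156). Sema3g, an Nrp2 ligand known from vessels, had signals of 219, 857 and 792 and 12.6, 17.9 and 28.4. The urothelium signals were all below the pseudocount of 45, so the log2 difference of −3.18 ± 0.51 (limma adjusted p = 0.00152) is compressed. Mesenchyme 1 had the lowest of the mesenchyme signals, and without it the difference was −3.76. Sema3d and Sema3f were not past the test. Sema3d, a class 3 ligand known from heart and neural crest, had signals of 2194, 3245 and 4246 and 8927, 5818 and 5128, which did not overlap; its log2 difference was 1.04 ± 0.33 (limma adjusted p = 0.0619, 95% interval 0.31 to 1.76), and it passed with array weights (0.74) and among only genes above the median signal. Its other probe set gave −0.051. Sema3f, an Nrp2 ligand, had 144, 1117 and 909 in mesenchyme and 1017, 1714 and 2143 in urothelium, with a difference of 1.43 ± 0.63 (limma adjusted p = 0.189). Mesenchyme 1, with its high actin ratio, stood far below the other mesenchyme arrays for Sema3f, and the part of RNA quality in this was not tested. Without mesenchyme 1 the difference was 0.60, not past the test.

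RefSeq places Sema3d, Sema3a, Sema3e and Sema3c in this order on chromosome 5. The gene that differed towards mesenchyme, Sema3a (−2.44), lies between Sema3d (1.04, not past the test) and Sema3e (1.97), with no other protein-coding gene between Sema3d and Sema3a in that table. Between Sema3a and Sema3e the table lists Gm6647, Speer3 and Gm6650, of which Speer3 was measured (1.64 ± 0.47, limma adjusted p = 0.0381).

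In class 4, whose members are membrane-bound and signal mostly through B-type plexins, 1 of 6 genes passed the test, against 14.7% of all genes. Sema4g, a ligand of Plxnb2, had signals of 1157, 1689 and 3256 in mesenchyme and 3783, 5091 and 4979.7 in urothelium. Mesenchyme 4 came near the lowest urothelium array, and the log2 difference was 1.28 ± 0.37 (limma adjusted p = 0.0430). The call of Sema4g was lost without mesenchyme 1 (0.95), mesenchyme 2 (1.21), urothelium 5 (1.42), urothelium 7 (1.21) or urothelium 8 (1.22), and without mesenchyme 1 and urothelium 5 together (1.09). It was also lost with a pseudocount of 179, without the intensity trend and when every probe set was tested by itself. Sema4b and Sema4d had no overlap between compartments but did not pass. Sema4d, the ligand of Plxnb1, had signals of 437, 314 and 462 and 809, 943 and 1018 (log2 difference 1.12 ± 0.37, limma adjusted p = 0.0701). Sema4b had 284, 255 and 341 and 849, 630.4 and 752 (log2 difference 1.22 ± 0.38, limma adjusted p = 0.0561). Both passed after quantile normalization, with centred arrays, without the intensity trend and with array weights, with differences between 1.08 and 1.44 for Sema4b and between 1.12 and 1.33 for Sema4d; Sema4d also passed among only genes above the median signal. With probe sets averaged they were 0.56 and 0.50, not past the test. Sema4a, which binds Plxnd1 on endothelial cells, differed by 1.27 ± 0.50 (limma adjusted p = 0.136). It passed without urothelium 5 (1.82), without mesenchyme 1 and urothelium 5 together (1.54) and with array weights (1.47). Sema4c, a Plxnb2 ligand, and Sema4f had differences of −0.71 (95% interval −1.52 to 0.10) and −0.86 (−1.88 to 0.15), and Sema4c passed only with array weights (−1.11).

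The membrane-bound ligands of classes 5 and 6 that passed were all higher in mesenchyme. Sema5a, a ligand with thrombospondin repeats, had signals of 5059, 4611 and 3114 in mesenchyme and 998, 416 and 627 in urothelium. The groups did not overlap, and the log2 difference was −2.62 ± 0.37 (limma adjusted p = 0.000669). Averaged over its 4 probe sets it was −1.32, past the test, and the dimmest of them gave 0.56. Sema6d, a ligand of Plxna1 known from heart development, had 3404, 7006 and 7198 and 300.4, 1052 and 509.7, with mesenchyme 1 the lowest of its group and urothelium 7 the highest of the other. Its difference was −3.24 ± 0.46, or 9.43-fold (limma adjusted p = 0.000656), but −0.79 and not past the test in the mean of its 4 probe sets; the 3 dimmer ones gave 0.043, −0.12 and 0.15. Sema6c had signals of 894, 767 and 588 and 72.6, 207 and 309 (log2 difference −1.84 ± 0.49, limma adjusted p = 0.0266). Its arrays did not overlap, but the call was lost without mesenchyme 1 (−1.71), mesenchyme 2 (−1.82), mesenchyme 4 (−2.00), urothelium 5 (−1.39) or urothelium 7 (−1.94). Sema6c was also not past the test without mesenchyme 1 and urothelium 5 together (−1.26) or in the mean of its probe sets (−0.77). Sema5b did not pass by its brightest probe set (−0.45 ± 0.40, limma adjusted p = 0.562), while its dimmer probe set gave −2.19, past the test when every probe set was tested by itself, and the average of both gave −1.32, also past it. Sema6a (−0.89, 95% interval −1.92 to 0.14), Sema6b (0.029, −1.03 to 1.09) and the lipid-anchored class 7 gene Sema7a (−0.96, −1.94 to 0.014) were not past it. Sema6b was near the level of the pseudocount on most arrays, and its sign turned with a pseudocount of 179.

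The neuropilin genes gave the largest differences of the 32 genes on this scale. With a pseudocount of 1, Sema3g (−4.76) and Plxnc1 (−4.70) exceeded Nrp1 (−4.03), and without mesenchyme 1 Sema3g did. With probe sets averaged Plxnd1 (−3.33) and Sema3g (−3.18) exceeded Nrp2 (−2.99) and Nrp1 (−2.34) in size, and Sema3e (2.62) exceeded Nrp1. Nrp2, which binds Sema3f and Sema3c as well as lymphatic VEGF ligands, had signals of 16305, 13785 and 14654 on the mesenchyme arrays and 521, 499 and 353 on the urothelium arrays. Its means were 14915 ± 1279.9 and 458 ± 91.5 (SD, n = 3), and the mesenchyme arrays were close to each other. The log2 difference of Nrp2 was −4.91 ± 0.28, or 30.1-fold (limma adjusted p = 2.67e-06). Nrp1, the co-receptor of Sema3a and of VEGF-A, had 8324, 5505 and 5377 and 511, 309.6 and 351, again with all mesenchyme arrays far above the others. It differed by −3.88 ± 0.33, or 14.8-fold (limma adjusted p = 2.33e-05). For each neuropilin 3 of 4 probe sets passed, all towards mesenchyme; the probe set of Nrp1 that did not gave 0.60, and that of Nrp2 gave −1.01. Fewer cells of a type and less RNA per cell cannot be told apart in these bulk samples.

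Of 9 plexin genes, 3 were higher in mesenchyme (8.99% of all genes) and 1 in urothelium (5.75%). Plxnd1, the receptor of Sema3e and a plexin of embryonic endothelium, had signals of 1668, 3434 and 2648 in mesenchyme and 159, 251 and 219 in urothelium. Mesenchyme 1 was the lowest of its group but still far above every urothelium array, and the log2 difference was −3.33 ± 0.39 (limma adjusted p = 0.000186). Plxnc1, the receptor of Sema7a, had 2128, 410.1 and 1052 and 122, 5.2 and 68.4, with a wide spread within both groups and no overlap. It differed by −3.39 ± 0.64 (limma adjusted p = 0.00405), and 2 of its 6 probe sets passed, both towards mesenchyme. Averaged over the 6 it was −1.06, past the test, and 3 of them lay between −0.034 and 0.19. Plxna4, an A-type plexin that serves Sema3a and class 6 ligands, had 314, 657 and 367 and 88.5, 110.3 and 181 (log2 difference −1.49 ± 0.45, limma adjusted p = 0.0478). That value lay at the threshold. The call of Plxna4 was lost without mesenchyme 2 (−1.20), mesenchyme 4 (−1.58), urothelium 5 (−1.33), urothelium 7 (−1.44) or urothelium 8 (−1.71). It was lost in 11 of 16 alternatives in all, among them the run without mesenchyme 1 and urothelium 5 together. Plxnb1, the receptor of Sema4d, was the plexin gene higher in urothelium, with signals of 2131, 2567 and 2734 and 4422, 4862 and 6453. Its arrays did not overlap, the log2 difference was 1.06 ± 0.27 (limma adjusted p = 0.0243), and the call was lost without mesenchyme 2 (1.09), mesenchyme 4 (1.13), urothelium 7 (1.10) or urothelium 8 (0.90), and when its probe sets were averaged (0.85).

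The A-type plexins Plxna1, Plxna2 and Plxna3, which pair with neuropilins to receive class 3 ligands, did not pass the test. Their log2 differences were −0.21 (95% interval −0.95 to 0.54), −0.48 (−1.11 to 0.16) and −0.076 (−0.82 to 0.67). Plxna1 had signals of 1261, 1313 and 1252 in mesenchyme and 863, 993 and 1538 in urothelium, and the arrays overlapped. Plxna2 had 4390, 2823 and 2908 and 2163, 2588 and 2351, with mesenchyme above and no overlap. Its 4 probe sets lay between −1.02 and −0.48, none of them past the test. The interval of Plxna1 excludes a mesenchyme excess of the size measured for Nrp1 or Nrp2. The B-type plexin genes Plxnb2 (−0.27, 95% interval −1.16 to 0.62) and Plxnb3 (0.31, −0.92 to 1.54) did not pass either. Plxnb2, the receptor of Sema4c and Sema4g, ran from 3923 on mesenchyme 1 to 11051 on mesenchyme 2, and the 3 urothelium signals were 3916, 5964 and 8165. Plxna4os1 gave 121, 44.5 and 45.9 and 58, 64.3 and 2.88, mostly near the pseudocount, and was not past the test (log2 difference −0.44 ± 0.42, limma adjusted p = 0.591).

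**Figure D3:**
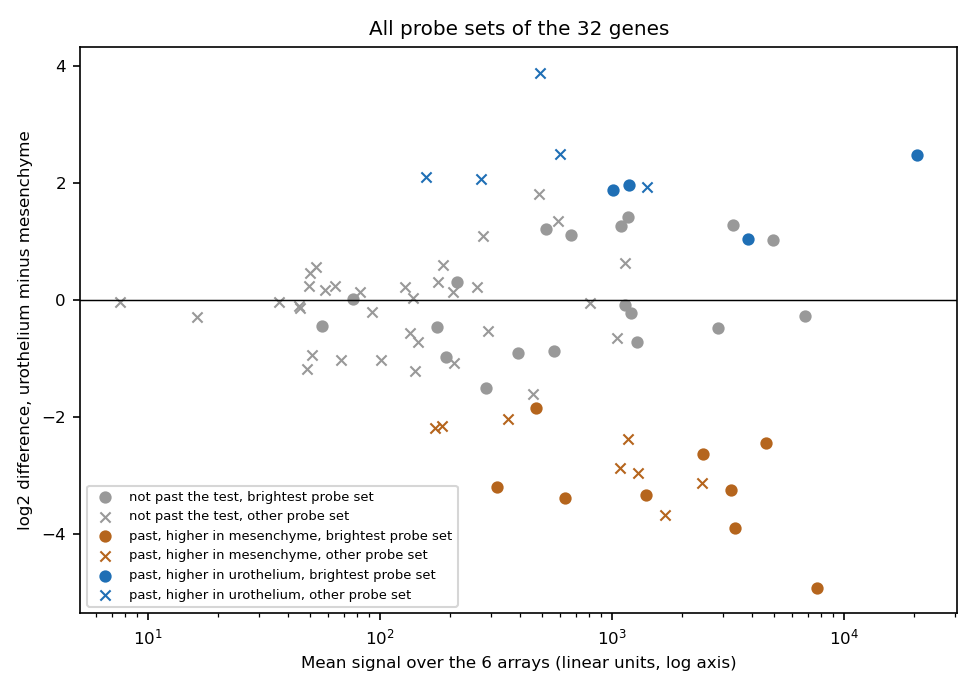
Log2 difference of each of the 79 probe sets, urothelium minus mesenchyme, against its mean signal over the 6 arrays (log axis); circles are the brightest probe set of each gene and crosses the others, coloured where they passed when every probe set was tested by itself. Coloured marks were 17 towards mesenchyme and 9 towards urothelium (5.75% and 3.66% of all probe sets with a single symbol), and the dimmest marks lie near 0.

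Set out as ligand and receptor pairs known from other tissues, 5 of 26 pairs had both genes past the test in opposite compartments. The pairs were picked by hand from textbook knowledge of binding, and the counts depend on that choice. Sema4b, Sema4f and Sema6c are in no pair, and the receptor Itgb1, paired with Sema7a, lies outside the genes of the rule. In all 5 opposite pairs the ligand was higher in urothelium and the receptor in mesenchyme: Sema3c with Nrp1, Nrp2 and Plxnd1, Sema3b with Nrp2, and Sema3e with Plxnd1. These pairs rest on 6 genes, so they are not independent of each other. Plxnb1, the only receptor gene past the test towards urothelium, was paired only with Sema4d. The shared direction of the opposite pairs therefore follows largely from the receptor calls. In 3 pairs both genes were higher in mesenchyme: Sema3a with Nrp1, Sema3a with Plxna4, and Sema3g with Nrp2. No pair had both genes past the test towards urothelium with the settings used for the values above; the nearest was Sema4d with Plxnb1, with log2 differences of 1.12 (not past) and 1.06. Both passed after quantile normalization, with centred arrays, among only genes above the median signal, without the intensity trend and with array weights. In 7 pairs the receptor gene alone passed, in 5 the ligand gene alone, and in 6 neither did. The opposite pairs numbered 5 or 6 when any single array was left out and the pairs within mesenchyme 2 or 3, of which Sema3a with Plxna4 follows the call of Plxna4. Transcript levels do not show that the proteins met.

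**Figure D4:**
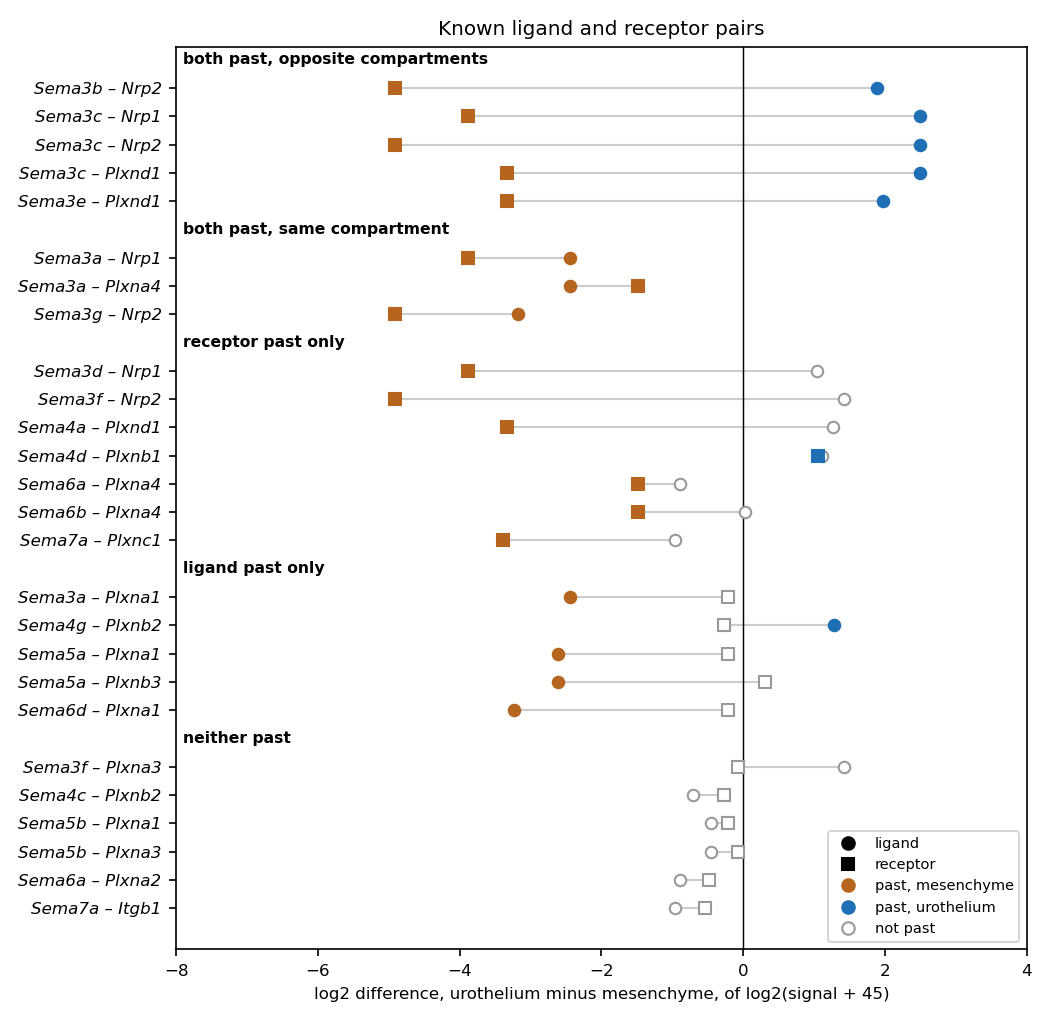
Log2 differences, urothelium minus mesenchyme, of the ligand (circle) and the receptor (square) of 26 known pairs, grouped by which genes passed the test; open marks did not pass. In the top group the circles lie between 1.88 and 2.49 and the squares between −4.91 and −3.33.

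In a list of co-receptors, other semaphorin receptors and VEGF partners of neuropilins, 10 of 20 genes were higher in mesenchyme (8.99% of all genes) and 1 in urothelium (5.75%), with a median log2 difference of −1.49 against −0.11 for all genes. The genes that differed most were Vegfd (−4.35 ± 0.60), a lymphatic VEGF ligand, the VEGF receptor gene Kdr (−3.98 ± 0.59), the ligand gene Pgf (−3.95 ± 0.51) and Vegfc (−3.66 ± 0.39), all towards mesenchyme. Met, the HGF receptor gene whose product can associate with Plxnb1, was higher in urothelium (3.41 ± 0.34), as Plxnb1 was. Of 31 measured genes of signalling below plexins, 7 were higher in mesenchyme and 0 in urothelium by limma (8.99% and 5.75% of all genes), with 10 at an unadjusted p under 0.05 in either direction, against 4572 of all 18193 genes. Their median was −0.23, and 24 of the 31 did not pass. The collapsin response mediator genes Crmp1 (−2.56 ± 0.44) and Dpysl3 (−2.19 ± 0.33), which relay Sema3a signals to the cytoskeleton, were among the 7. So were Rras (−2.38 ± 0.48), a small GTPase switched off by plexins, and the kinase gene Fes (−2.02 ± 0.47). Of the family of Crmp1 and Dpysl3, Dpysl4 (−2.00 ± 0.40) also passed, while Dpysl2 (−0.29 ± 0.38) and Dpysl5 (−0.14 ± 0.39) did not.

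Endothelial markers and most macrophage markers were higher in mesenchyme, while the neural and mesothelial lists were mixed. All 10 endothelial markers were higher in mesenchyme (8.99% of all genes). Their summed signal was 21016 to 26240.3 on the mesenchyme arrays and 1146 to 1778 on the urothelium arrays. Kdr is counted both here and in the list of co-receptors and VEGF partners. In urothelium the defining marker Pecam1 had signals of 19.8, 26.7 and 23, below the pseudocount, and no marker was listed at 0. Nrp1, Nrp2, Plxnd1 and Sema3g are known from endothelium, and the part of endothelial cells in their differences was not tested. Of 9 measured macrophage markers 6 were higher in mesenchyme (8.99% of all genes), with summed signals of 10652 to 16265 and 1611 to 1912. Their part in the difference of Plxnc1, which leukocytes also express, was not tested. On mesenchyme 1, 2 and 4 the macrophage sums were 10652, 16265 and 14228, and Plxnc1 had 2128, 410.1 and 1052. Among 8 measured neural crest, glial and neuronal markers 1 was higher in mesenchyme (8.99% of all genes) and 2 in urothelium (5.75%). The neuronal gene Stmn2 had 3059, 695 and 1131 in mesenchyme, highest on mesenchyme 1, and 289, 279 and 344 in urothelium; the 2 higher in urothelium, Erbb3 and Ret, are also expressed by epithelia. Of 5 mesothelial markers 2 were higher in mesenchyme (8.99% of all genes) and 2 in urothelium (5.75%). Of those higher in urothelium 1, Krt19 (4.49 ± 0.31), is also a marker of the epithelial list. The other was Msln (5.16 ± 0.48), which is not in that list.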

How the data were processed

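The deposited values are Affymetrix signal intensity on a linear scale, 1 per probe set for 45101 probe sets on 6 arrays. The submitters' processing notes name GCOS, and for the algorithm nothing was given in the sources used here. All arrays had a 2% trimmed mean of 1500 and were not scaled further. Detection calls were not used here. Leaving out 64 controls, 34945 probe sets had a single symbol in the platform annotation, and each gene was read from its probe set with the highest mean signal (18193 genes). Log2(signal + 45), with 45 the 25th percentile of all values, was fitted with limma 3.58.1 (R 4.3.3; lmFit, eBayes with trend) over all genes and arrays. The fit was tested on data simulated with independent noise from its own variances, which does not cover the uneven actin ratios of the arrays. Every gene of the rule is reported; those past the test, or without overlap and with a log2 difference of at least 1, are given array by array. From each pathway list up to 4 genes past the test in each direction are named, and other genes named were chosen after their values were seen. The members, lists and pairs were chosen with earlier results of these data known. The compartments share no replicate number, and the labels name no batch.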

Additional observations from a re-analysis of the deposited data

How the results depend on the processing

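Of the 15 genes past the test, 10 passed in the same direction in every alternative run that included them: Nrp1, Nrp2, Plxnc1, Plxnd1, Sema3a, Sema3b, Sema3c, Sema3e, Sema3g and Sema5a. Of the 17 others, 11 passed in none. With array weights 9 members and 2074 of all genes were higher in urothelium and 3033 of all genes in mesenchyme. Leaving out each array in turn gave 3 to 5 members and 652 to 1061 of all genes higher in urothelium; fewer arrays leave fewer degrees of freedom. The sign turned for members that had not passed. Plxna3 was 0.10 after quantile normalization, 0.11 with centred arrays, 0.14 with array weights and 0.23 without mesenchyme 1 and urothelium 5. Sema6b was −0.013 with a pseudocount of 179, −0.18 with array weights and −0.41 without those arrays. Plxnb3 was −0.17 with array weights, −0.12 in the mean of its probe sets and −0.55 by its other probe set. Plxna4os1 was 0.011 with array weights and Plxna1 0.0092 in the mean of its probe sets. Over the arrays left out in turn, the log2 difference ran from −0.18 to 0.13 for Plxna3, −0.11 to 0.77 for Plxnb3, −0.30 to 0.52 for Sema6b and −0.68 to 0.061 for Plxnb2. The cause was not tested. Of the 32 genes 11, among them Sema3g, were too dim for the analysis of genes above the median signal. No paired analysis was possible because the compartments share no replicate number. Signals near the pseudocount limit Sema3g, Sema6b, Plxna4os1 and, in urothelium, Plxnc1. The log2 difference of Plxnc1 was −4.70 with a pseudocount of 1 and −2.31 with a pseudocount of 179.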
